A study of Mus musculus with 12 samples.

Results

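A set of 10 genes known for keeping the stem cell state of mouse spermatogonia was followed across 12 testes of mice with an altered Sox3 locus and their wild-type relatives. The set is Id4, Nanos2, Foxc2, Pax7, Eomes, Pdx1, Zbtb16, Sall4, Foxo1 and Taf4b. The genes were chosen by symbol, and all 10 were found among the 22180 genes that the arrays measure with a cluster of probes assigned to 1 gene. Whole testes of C57BL/6N mice were taken at 2 weeks of age, and the RNA of each testis was read on its own Affymetrix whole-transcript array. The groups were 3 Sox3-Sox2KI testes (KI), 3 Sox3-KO testes (KO), 3 WT testes from littermates of KI mice (WT 1 to WT 3) and 3 WT testes from littermates of KO mice (WT 4 to WT 6). Both alleles were made with CRISPR/Cas9, and how many founder lines were used was not given in the sources used here. The name of the KI line says that Sox2, a close relative of Sox3, was placed at the Sox3 locus. Sox3 is X-linked and encodes a transcription factor that is found in spermatogonia committed to differentiate.

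Spermatogenesis draws on a small pool of undifferentiated spermatogonia. Within that pool, cells that act as stem cells pass through a progenitor state before the retinoic acid signal commits them to differentiation and then to meiosis. Several nuclear proteins and 1 RNA-binding protein hold cells on the stem side of this path. Id4, Nanos2, Foxc2, Pax7, Eomes and Pdx1 mark narrow stem-enriched subsets, while Zbtb16, Sall4, Foxo1 and Taf4b act more broadly in undifferentiated spermatogonia. Because the samples were whole testes, fewer cells of a type and less RNA per cell cannot be told apart in any value below.

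The targeted gene was read first. Sox3 was 7.26, 6.75 and 6.95 on the log2 scale in KI testes, 6.57 to 6.65 in KO testes, and 7.21 to 7.36 (median 7.28) in WT testes. It fell in KO testes (log2 change -0.68, limma adjusted p = 0.0161). KI 1 lay within the WT range, and where the probes sit relative to either allele was not known here. Sox2 was 4.33 ± 0.18 in KI (SD, n = 3), 4.12 ± 0.10 in KO (SD, n = 3) and 4.04 ± 0.17 in WT testes (SD, n = 6), with KI testes 0.29 above WT testes (limma adjusted p = 0.945, not passed). KI testes were 0.14 above their own WT littermates, and WT testes of KI litters 0.30 above those of KO litters. Germ cell markers (8 of 8 measured), meiotic prophase markers (15 measured) and Sertoli cell markers (11 of 11) had means above 5.33, the 95th percentile of 1105 olfactory receptor genes. That percentile served as an approximate background limit, since probes of different genes differ in brightness. By the same limit Sox2 was at background in every group, and Eomes, Nanos2 and Pdx1 were so on average (means over 12 arrays of 4.47, 4.96 and 5.27), and the other 7 genes were above it.

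In KO testes 1 of the 10 genes passed the test against WT testes. Foxc2, a forkhead transcription factor that marks a slowly dividing subset of stem spermatogonia, rose 1.43-fold in KO testes (log2 change 0.52, SE 0.11, 95% interval 0.28 to 0.76; limma adjusted p = 0.032 over all genes). Over all 22180 genes 4.86% passed this test. The remaining 9 genes did not pass, with log2 differences between -0.36 (Id4) and 0.26 (Nanos2). Of the 10 differences 6 were positive, where 59.8% of all genes had a positive difference. Their median was 0.11, beside 0.04 over all genes. At an unadjusted p under 0.05 there were 4 of 10 genes (Foxc2, Nanos2, Sall4 and Taf4b), where 24.2% of all genes reached it. Neither share of the 10 was tested against that of all genes. The median 95% interval of a gene in this comparison reached 0.22 to either side of its log2 difference.

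**Figure D1:**
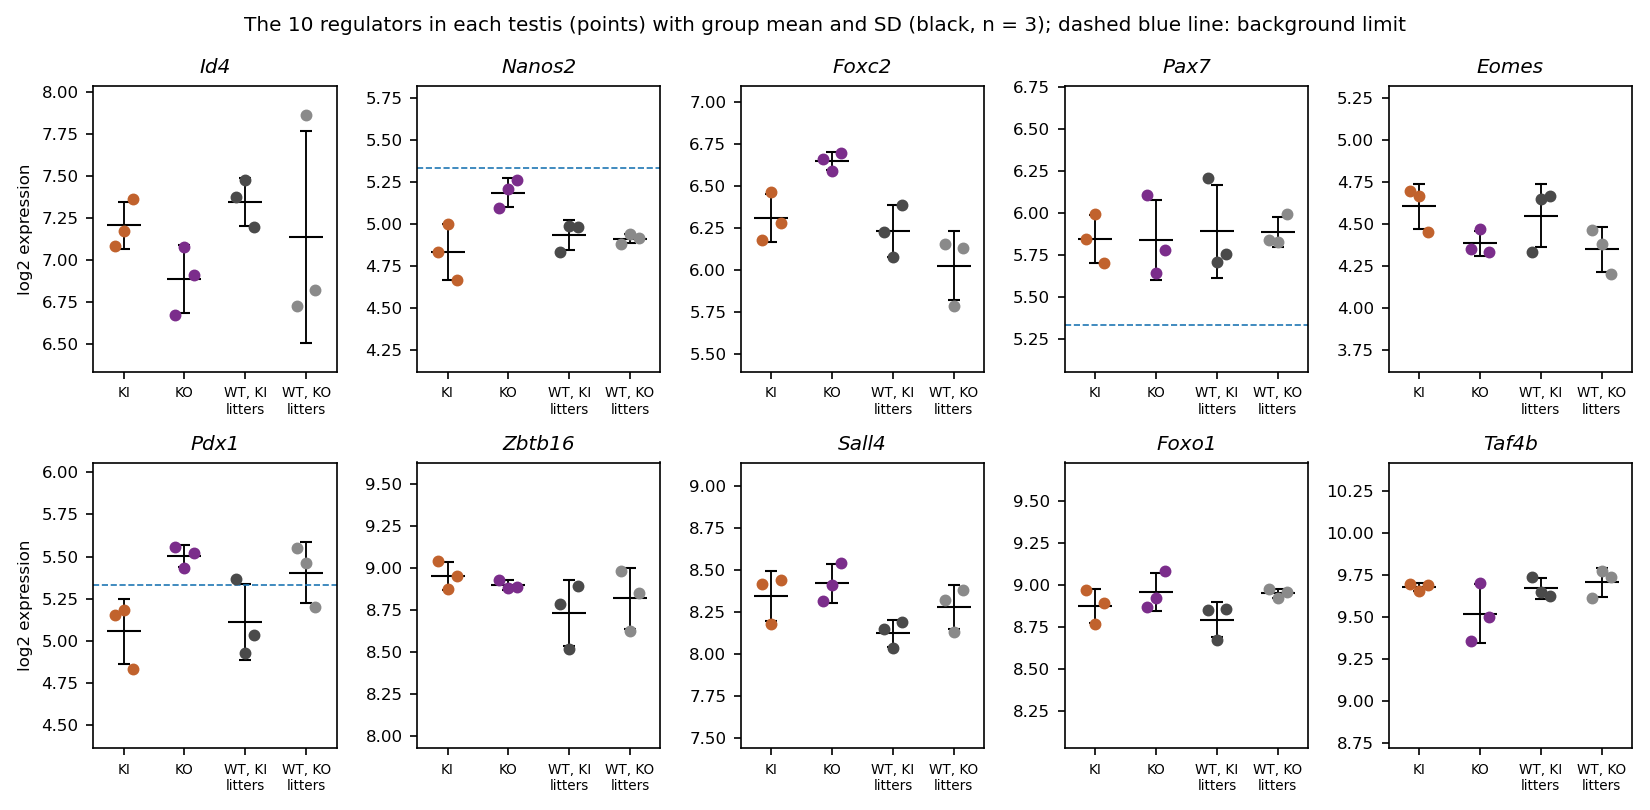
Log2 expression of the 10 regulators in each testis, with 1 panel per gene, all panels 1.7 log2 units high. Points are single arrays of the KI, KO, WT (KI litters) and WT (KO litters) groups, black bars are the group mean and SD (n = 3), and the dashed line is the background limit of 5.33 where it falls in the panel. The 3 KO points of Foxc2 (6.59 to 6.69) lie above every other array.

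Foxc2 was 6.18, 6.46 and 6.28 in the 3 KI testes and 6.66, 6.59 and 6.69 in the 3 KO testes. In the 6 WT testes it ran from 5.79 (WT 5) through a median of 6.14 to 6.39 (WT 3). All KO arrays lay above all WT and all KI arrays, while the KI arrays lay in the upper part of the WT range and, for KI 2, just above it. KO arrays lay wholly above WT arrays for 6.87% of all genes. The exact two-sided permutation p of KO against WT was 0.0238, the smallest possible with 84 splits of 3 against 6 arrays. Set against KO littermates only, the difference was 0.62, and against WT of the KI litters it was 0.42. Both had to be positive, since every KO array lay above every WT array, so their sign is no separate check. Foxc2 passed in neither of these smaller comparisons (limma adjusted p = 0.133 and 0.0593), where 0.00902% and 6.06% of all genes passed. Leaving out 1 array kept the difference between 0.45 and 0.57. The call was lost without WT 1 (adjusted p = 0.0634), WT 2 (0.0656), WT 3 (0.0576), WT 5 (0.0615), KO 1 (0.129) or KO 3 (0.149), and was kept without any of the other 6 arrays.

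Foxc2 is also known from lymphatic and other vascular endothelium. None of 7 endothelial markers passed in KO testes, and all 7 differences were positive with a median of 0.15. Their mean level was 6.89 to 7.29 in KO testes and 6.79 to 7.04 in WT testes, so the groups overlapped. The lymphatic receptor gene Lyve1 was 7.60 ± 0.31 in KO (SD, n = 3) and 7.45 ± 0.06 in WT testes (SD, n = 6), and Prox1, the regulator of lymphatic identity, was under the background limit (mean 5.09). The mean level of the Sertoli cell markers was higher in every KO array (9.50 to 9.76) than in any WT array (9.27 to 9.48). Single markers were not uniform, with differences from -0.02 (Gata1) to 0.75 (Amh). Of the 11 markers 2 rose (Inhbb by 0.38 and Fshr by 0.36) and 9 did not pass, where 558 of all 22180 genes rose. None of the 11 Sertoli cell markers passed against the KO littermates alone. The part of these cells in the Foxc2 result was not tested.

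**Figure D2:**
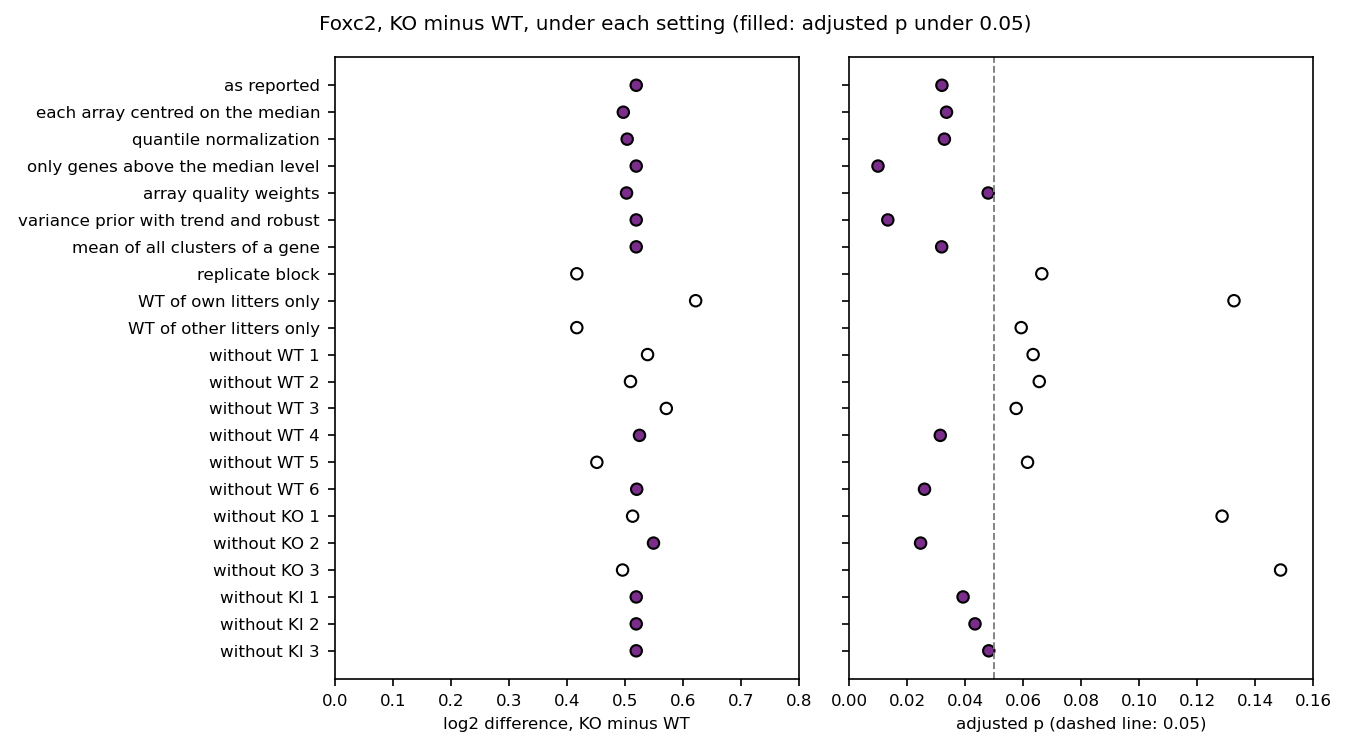
Foxc2 in KO minus WT testes under each setting, with the log2 difference on the left and the limma adjusted p on the right. Filled points have an adjusted p under 0.05, and the lower rows leave out 1 array each. The difference stays between 0.42 and 0.62 in every setting shown, while the adjusted p crosses 0.05.

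Nanos2 and Id4 are placed at the stem end of the path. Nanos2 encodes an RNA-binding protein that holds mRNAs of differentiation in an inactive state, and Id4 encodes a helix-loop-helix protein that has no DNA-binding region and blocks E-proteins. Nanos2 was 4.83, 4.996 and 4.67 in KI testes, 5.09, 5.20 and 5.26 in KO testes, and 4.83 to 4.99 (median 4.92) in WT testes. All 3 KO arrays lay above all WT and KI arrays, and KO arrays lay wholly above WT arrays for 6.87% of all genes. Every array of Nanos2 was dimmer than the background limit of 5.33, where differences in amount are read least surely. The KO difference of 0.26 (SE 0.08, 95% interval 0.10 to 0.43) did not pass over all genes (adjusted p = 0.0649), and the exact permutation p was 0.0238, the smallest possible. It was 0.28 against the KO littermates alone (adjusted p = 0.211), and 0.23 to 0.31 with 1 array left out (adjusted p 0.0583 to 0.222).

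Id4 was 7.08, 7.17 and 7.36 in KI testes, 6.67, 7.08 and 6.91 in KO testes, and 6.73 to 7.86 (median 7.28) in WT testes. KO arrays lay in the lower part of the WT range, and only KO 1 lay below it. WT testes of the KO litters were themselves spread from 6.73 (WT 4) and 6.82 (WT 6) to 7.86 (WT 5). The mean level of meiotic prophase markers was 8.70 in WT 4, 8.69 in WT 6 and 9.09 in WT 5. In KO 1, KO 2 and KO 3 that level was 7.72, 8.50 and 7.78. The part of meiotic cells in the Id4 values was not tested. The KO difference of -0.36 did not pass (adjusted p = 0.325), and was -0.23 without WT 5. Its 95% interval, from -0.81 to 0.10, is the widest of the 10 in this comparison.

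The promoters of these 2 genes are shown because, among members with a RefSeq promoter entry (GRCm38.p6), Nanos2 is the one whose KO and WT arrays did not overlap and Id4 the one with the largest negative KO difference. Each is the 250 bases before the transcription start, 5′ to 3′ on the gene's strand, with CCAAT, a common promoter element, in capitals on either strand (ATTGG where reversed). Nanos2 covers chr7:18987274-18987523 and Id4 chr13:48260866-48261115, both on the plus strand.
Nanos2: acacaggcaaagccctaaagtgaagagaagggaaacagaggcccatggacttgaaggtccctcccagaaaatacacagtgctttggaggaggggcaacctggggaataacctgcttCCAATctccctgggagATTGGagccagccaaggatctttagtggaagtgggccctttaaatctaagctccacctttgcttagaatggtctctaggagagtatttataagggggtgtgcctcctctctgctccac
Id4: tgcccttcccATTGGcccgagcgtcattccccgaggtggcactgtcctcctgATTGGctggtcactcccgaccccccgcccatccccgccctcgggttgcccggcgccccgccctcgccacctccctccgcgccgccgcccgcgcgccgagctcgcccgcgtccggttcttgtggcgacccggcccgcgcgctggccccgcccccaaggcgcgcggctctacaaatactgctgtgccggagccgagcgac
Nanos2 has its CCAAT elements starting 134 and 118 bases before the start, and its window is 50.8% G and C. In Id4 they lie 240 and 198 bases before it in a window of 75.6% G and C. Entries were found for 6 of the 10 genes (Id4, Pax7, Eomes, Foxo1, Nanos2 and Pdx1). Their windows were searched on both strands for ACAAAG, a core sequence of SOX factors. It was in none of the 6, and in 16.5% of 32851 promoter windows of the same length. The other SOX core searched was ACAATG, found in none of the 6 and in 10.7% of all windows. For forkhead factors the sequence was GTAAACA, found in none of the 6 and in 3.17% of all windows. No motif of the search contains another. CCAAT was in 5 of the 6 windows and in 33.8% of all windows. These letters say nothing of binding.

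Pax7, Eomes and Pdx1 mark rare spermatogonia and are better known from muscle satellite cells, from T cells and natural killer cells, and from the pancreas, in that order. None of them passed in KO testes. Pax7, a paired-box factor, was 5.84, 5.99 and 5.70 in KI testes, 6.10, 5.64 and 5.78 in KO testes and 5.71 to 6.21 (median 5.83) in WT testes. The KO difference of -0.05 had an interval of -0.32 to 0.22, and the groups overlapped. Skeletal muscle markers had mean levels of 5.78 to 6.01 in KO and 5.66 to 5.80 in WT testes, and 0 of 5 passed.

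Eomes, a T-box factor, was 4.69, 4.67 and 4.45 in KI testes, 4.35, 4.47 and 4.33 in KO testes and 4.21 to 4.67 (median 4.42) in WT testes. Every array was under the background limit. The KO difference was -0.07 (interval -0.29 to 0.16). Of 7 T and natural killer cell markers 4 had means under that limit as well, and none passed in KO testes.

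Pdx1, a homeobox factor, was 5.15, 5.18 and 4.83 in KI testes, 5.56, 5.43 and 5.52 in KO testes and 4.93 to 5.55 (median 5.28) in WT testes. KO arrays sat at the top of the WT range, with KO 1 just above it, and KI arrays in its lower part, with KI 3 below it. The KO difference of 0.25 (interval -0.04 to 0.54, adjusted p = 0.284) was 0.10 against the KO littermates and 0.39 against WT of the KI litters. The 2 control groups themselves differed at this gene by -0.30 (KI litters minus KO litters), which was the sole unadjusted p under 0.05 among the 10 genes in that comparison (0.0495).

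Zbtb16, Sall4, Foxo1 and Taf4b, the more broadly expressed regulators, did not pass in KO testes, with differences of -0.17 to 0.22. Zbtb16 encodes PLZF, a zinc finger repressor needed for self-renewal. It was 9.04, 8.87 and 8.96 in KI testes, 8.93, 8.88 and 8.89 in KO testes and 8.52 to 8.98 (median 8.82) in WT testes. All KO arrays lay inside the WT range, and the KO difference was 0.12 (interval -0.08 to 0.33, adjusted p = 0.471).

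Sall4, a zinc finger protein that binds PLZF, was 8.42, 8.18 and 8.44 in KI testes, 8.31, 8.41 and 8.54 in KO testes and 8.04 to 8.38 (median 8.17) in WT testes. KO 2 and KO 3 were above the WT range and KO 1 was inside it. The KO difference of 0.22 (interval 0.02 to 0.42) did not pass (adjusted p = 0.169). It was 0.14 against the KO littermates and 0.30 against WT of the KI litters. A dimmer second cluster of Sall4 averaged 4.67, under the background limit, and with the mean of both clusters the KO difference was 0.20.

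Foxo1 encodes the forkhead factor that PI3K and AKT signalling keeps out of the nucleus. It was 8.97, 8.77 and 8.89 in KI testes, 8.87, 8.92 and 9.08 in KO testes and 8.67 to 8.97 (median 8.89) in WT testes. KO 3 was above the WT range and the other 2 KO arrays were inside it. The KO difference was 0.09 (interval -0.09 to 0.26). A second cluster of Foxo1 averaged 6.57, and with the mean of both the KO difference was 0.00.

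Taf4b encodes a germ cell subunit of the general transcription factor TFIID. It was 9.70, 9.65 and 9.69 in KI testes, 9.35, 9.70 and 9.50 in KO testes and 9.61 to 9.77 (median 9.69) in WT testes. KO 1 and KO 3 were below the WT range, while KO 2 was in its middle. The KO difference of -0.17 (interval -0.34 to -0.00) did not pass (adjusted p = 0.201). Without KO 2 it was -0.26 and passed (adjusted p = 0.0456), and without KO 1 it was -0.09 (0.568). General germ cell markers had mean levels of 9.30 to 9.68 in KO and 9.67 to 10.24 in WT testes. Of these 8 markers 4 fell, among them Ddx4 (-0.61) and Dazl (-0.39). Meiotic prophase markers were 7.72 to 8.50 in KO and 8.69 to 9.19 in WT testes, and 13 of 15 fell. Over all genes 520 of 22180 fell. Against the KO littermates alone no germ cell or meiotic prophase marker passed, where 2 of all genes did. The part of these cells in the Taf4b values was not tested.

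**Figure D3:**
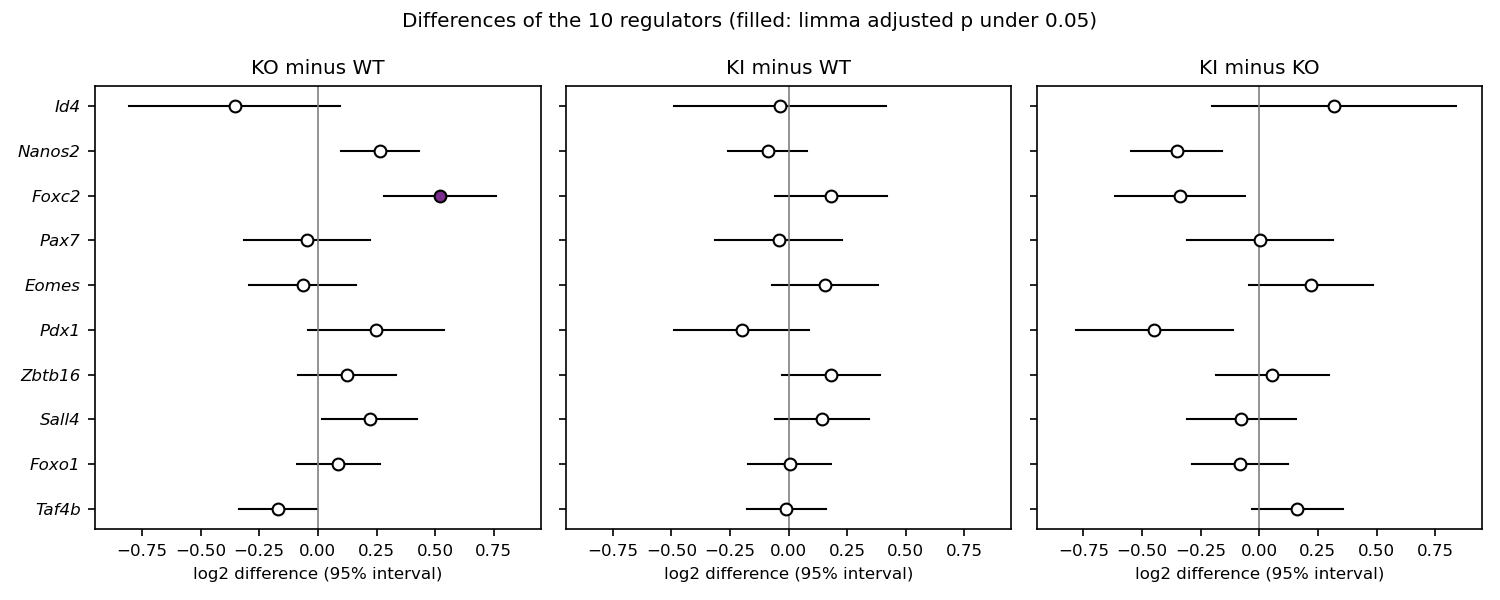
Log2 differences of the 10 regulators with 95% intervals (limma, all 12 arrays) for KO minus WT, KI minus WT and KI minus KO. Filled points have an adjusted p under 0.05. Foxc2 in KO minus WT (0.52) is the filled point, and Id4 has the widest intervals.

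In KI testes none of the 10 genes passed against WT by limma, none had an unadjusted p under 0.05, and no KI group lay apart from the WT arrays. Over all genes 0% passed, 5.24% had an unadjusted p under 0.05, and for 3.1% the arrays did not overlap. The differences ran from -0.20 (Pdx1, interval -0.49 to 0.09) to 0.18 (Foxc2, interval -0.06 to 0.42), with 5 positive, where 49.6% of all genes were, and a median of -0.00. Zbtb16 (0.18, interval -0.03 to 0.39), Eomes (0.16, -0.07 to 0.38) and Sall4 (0.14, -0.06 to 0.34) were the other positive differences over 0.1. Against the KI littermates alone Foxc2 was 0.08, Pdx1 -0.05, Sall4 0.22 and Zbtb16 0.22, and none of the 10 passed (0% of all genes). Against WT of the KO litters none passed by limma either (0% of all genes), but 3 of 10 had an unadjusted p under 0.05, where 5.45% of all genes did. These were Foxc2 (0.28), Eomes (0.25) and Pdx1 (-0.35), each with an adjusted p of 0.911. Genotype and litter origin cannot be told apart in that comparison. WT testes of KI litters differed from those of KO litters by 0.20 (Foxc2), 0.20 (Eomes) and -0.30 (Pdx1). Against the KI littermates the KI differences of these genes were 0.08, 0.06 and -0.05. Against all WT testes Nanos2 was -0.09 (interval -0.26 to 0.08). Id4 was at -0.04, with the widest interval of the 10 (-0.49 to 0.41).

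KI and KO testes were also compared directly, on 3 arrays each. They came from litters of different lines, so genotype and litter origin cannot be told apart in this comparison. None of the 10 genes passed by limma and 0% of all genes did. At an unadjusted p under 0.05 there were 3 of 10, where 18% of all genes reached it. These were Nanos2 (KI minus KO -0.35, SE 0.09, adjusted p = 0.143), Pdx1 (-0.45, SE 0.15, adjusted p = 0.187) and Foxc2 (-0.34, SE 0.13, adjusted p = 0.208). WT testes of KI litters differed from those of KO litters by 0.02 for Nanos2, -0.30 for Pdx1 and 0.20 for Foxc2. For each of the 3 all KI arrays lay below all KO arrays, as they did for 12.6% of all genes. Id4 was the opposite case, with KI 7.08 to 7.36 and KO 6.67 to 7.08. All KI arrays were above all KO arrays there, by little between KI 1 (7.083) and KO 2 (7.076), as for 9.56% of genes (difference 0.32, interval -0.20 to 0.84). With 3 arrays a side the exact two-sided permutation p cannot go below 0.1, and it was 0.1 for these 4 genes. Pax7 (0.00, interval -0.31 to 0.32), Zbtb16 (0.06), Sall4 (-0.08) and Foxo1 (-0.08) differed least.

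The 2 WT groups bear on how far these genes vary with litter origin, that is, the line of the littermates. The labels do not name single litters. None of the 10 genes passed by limma between WT testes of KI litters and of KO litters, and 0% of all genes did. Differences (KI litters minus KO litters) lay between -0.30 (Pdx1) and 0.21 (Id4). At an unadjusted p under 0.05 there was 1 of 10 genes, Pdx1, beside 5.29% of all genes. Foxo1 was the gene whose 2 WT groups did not overlap, at 8.67 to 8.86 in KI litters and 8.92 to 8.97 in KO litters, with KI litters lower, as happened for 7.93% of all genes. The litter difference of Foxc2 (0.20) and that of Id4 (0.21) stand beside KO differences of 0.52 and -0.36. Cell type markers differed too, though none passed. Higher in KI litters were 8 of 8 germ cell (median 0.26), 13 of 15 meiotic prophase (0.28) and 9 of 10 pachytene markers (0.36). So were 0 of 11 Sertoli cell (-0.09) and 1 of 4 Leydig cell markers (-0.67), and 9987 of 22180 genes. The part of these cells in the members' differences was not tested.

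A test of the KO effect minus the KI effect, each taken against its own WT littermates, gave no passing gene among the 10 and 0% over all genes. At an unadjusted p under 0.05 there were 2 of 10, Foxc2 and Nanos2, where 5.83% of all genes reached it. For Foxc2 the difference of effects was 0.54 (SE 0.17, 95% interval 0.18 to 0.91, adjusted p = 0.847). For Nanos2 it was 0.38 (SE 0.13, interval 0.09 to 0.66, adjusted p = 0.847). Each of the 3 KO testes exceeded the mean of the KO litters' WT testes by 0.56 to 0.67 for Foxc2, while KI testes ran from -0.05 to 0.24. The 8 other members had differences of effects between -0.20 (Taf4b) and 0.15 (Pdx1).

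Genes around the 10 regulators were listed by role, to set the members beside their relatives. Of 16 paralogs of the same families 1 rose in KO testes and none fell, where 558 of all 22180 genes rose and 520 fell. The median difference of the paralogs was 0.10, beside 0.04 over all genes. Id2, an inhibitor of E-proteins like Id4, rose by 0.31 (SE 0.06, adjusted p = 0.0311), to 9.49 ± 0.05 in KO (SD, n = 3), against 9.18 ± 0.07 in WT testes (SD, n = 6). Its relatives Id1 (0.38, adjusted p = 0.0973) and Id3 (0.47, adjusted p = 0.0513) did not pass. So 3 Id genes had positive differences and Id4 a negative one (-0.36), but only the difference of Id2 passed. The interval of Id4 ran from -0.81 to 0.10, and the contrast between Id4 and its relatives was not tested. Foxc1, the closest relative of Foxc2, differed by 0.04 (adjusted p = 0.899), and Taf4, the widely expressed relative of Taf4b, by -0.06 (0.622). Among the FOXO genes Foxo3 (0.35, adjusted p = 0.0713), Foxo4 (0.18, 0.301) and Foxo6 (0.36, 0.0757) did not pass either.

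Where 4.86% of all genes passed in KO testes, none of 13 measured partners and upstream kinases did (median 0.10). They include the E-proteins Tcf3, Tcf4 and Tcf12 that ID proteins bind (0.13, 0.23 and 0.10), and the deacetylase Hdac1 (-0.22) and histone-binding Rbbp4 (0.13) of the NuRD complex that SALL4 recruits. Akt1 (0.23, adjusted p = 0.0948) and Pdpk1 (-0.28, 0.0534), which encode kinases upstream of FOXO1, had differences of opposite sign.

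The list of GDNF receptor and stem state genes held 14 measured genes, of which 6 rose in KO testes, none fell and 8 did not pass (median 0.10). Over all 22180 genes 558 rose and 520 fell. The transcription factor gene Etv5, a GDNF target, rose by 0.35 (adjusted p = 0.0353). The other transcription factors of GDNF signalling on the list did not pass, with Bcl6b at -0.01, Lhx1 at 0.01 and Pou3f1 at -0.07. Gfra1 (0.70), Ret (0.71), Erbb3 (0.88) and Itga6 (0.38), which encode surface receptors, and the adhesion gene Mcam (0.40) made up the rest of those that rose. Against the KO littermates alone 1 of the 14 passed, Gfra1 (0.69, adjusted p = 0.0314), where 2 of all genes did. In KI testes Gfra1 was 0.28 and Ret 0.40 above WT, and none of the 14 passed. For Gfra1 the arrays were 6.85 ± 0.05 in KI (SD, n = 3), 7.27 ± 0.06 in KO (SD, n = 3) and 6.57 ± 0.09 in WT testes (SD, n = 6). Of 14 progenitor and differentiation regulators 2 fell in KO testes, Neurog3 (-1.29) and the targeted Sox3, none rose and 12 did not pass (median -0.12). Kit, the receptor that PLZF represses, was at -0.18 (adjusted p = 0.113) and Stra8, which retinoic acid induces, at -0.17 (0.337). None of the 14 passed in KI testes, and against the KO littermates alone 1 of them fell in KO testes, Neurog3. Several of these genes were known to differ in these samples when the lists were drawn up.

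**Figure D4:**
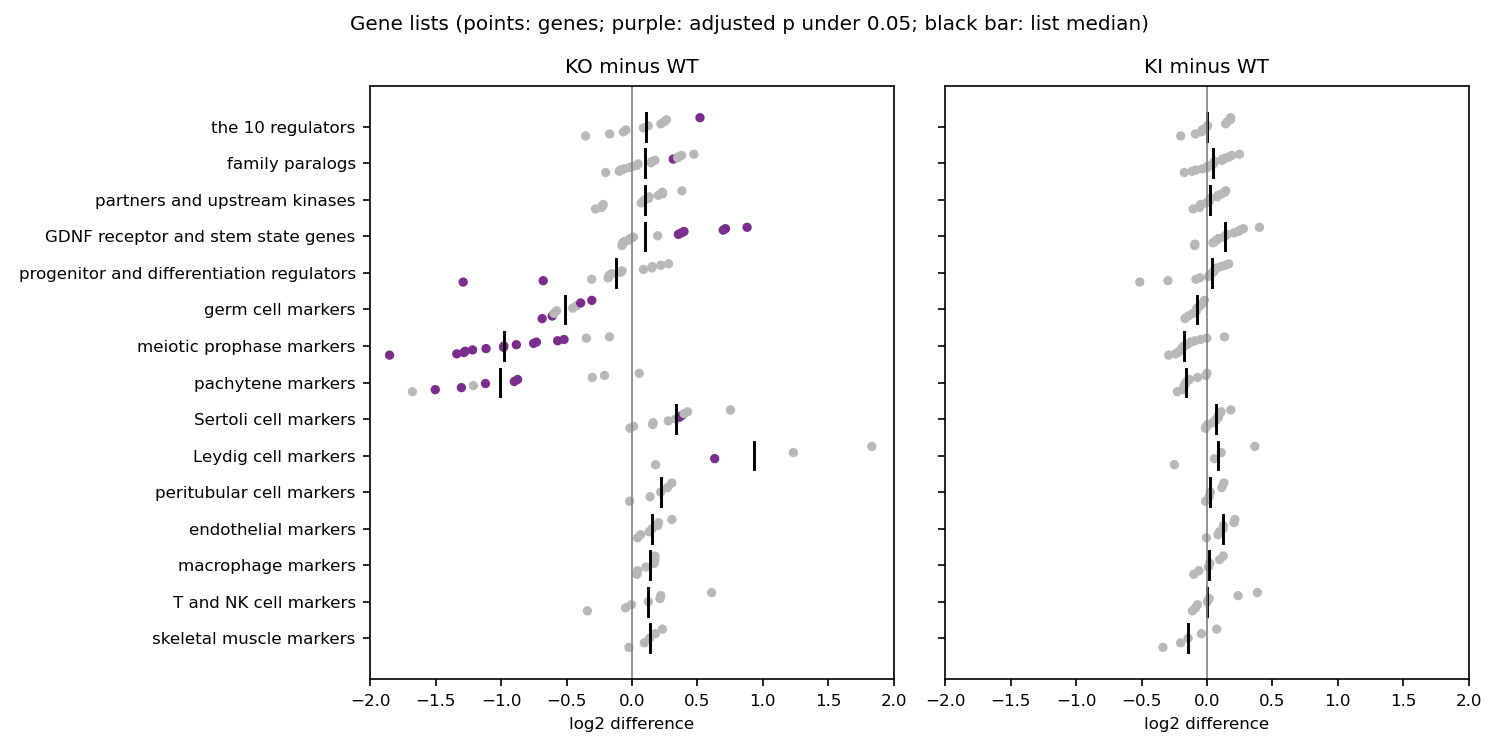
Log2 differences from WT of the 10 regulators and of 14 other gene lists, for KO testes (left) and KI testes (right). Points are genes, purple ones have an adjusted p under 0.05, and black bars are list medians. The regulators have a median of 0.11 in KO testes, while meiotic prophase markers have a median of -0.98 and no gene of any list is purple in KI testes.

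Other cell types were read from their markers in the same arrays. In KO testes 5 of 10 pachytene markers fell (median -1.01, with Ybx2 at -1.50), where 520 of all 22180 genes fell. Of 4 Leydig cell markers 1 rose (Hsd3b1 by 0.63), where 558 of all genes did. Neither list had a passing gene against the KO littermates alone. None of 5 peritubular (Acta2 0.14), 7 endothelial (Cdh5 0.31), 6 macrophage (C1qb 0.18) or 7 T and natural killer cell markers (Cd3e -0.34) passed. Cd3e had the lowest difference of its list, in which 4 of 7 were positive (median 0.12, up to 0.61 for Gzmb). RMA, named among the tools, puts arrays on a common distribution, so these are relative levels within each testis, and the part of the shift in meiotic transcripts in the members' differences was not tested.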

How the data were processed

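The authors' deposited values are log2 expression values per transcript cluster (0.91 to 13.93, 41345 clusters, 12 arrays). The software list, per the submitters' processing notes, holds Partek 6.6, Affymetrix Expression Console and RMA, without saying which step each did. Build, filters and annotation release were not given in the sources used here. Clusters were named from the platform annotation. The 23521 clusters with 1 gene symbol were kept (1814 had several, 16010 none), and the cluster of highest mean stood for a gene (22180 genes, 1082 with more than 1 cluster).

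The test was limma 3.58.1 (lmFit, eBayes, two-sided) in R 4.3.3, with Benjamini-Hochberg adjustment over all 22180 genes at 0.05. The 3 genotype groups were fitted together on 12 arrays, and litter comparisons came from a fit of the 4 label groups. No filter was applied. Exact permutation tests used scipy 1.17.1. The fits were tested on simulated data. Precision is limited by how many arrays there are. The labels call the replicates biological, and 1 array was made per testis.

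Members and lists were chosen with earlier results of these data known. Named besides the members were Sox3 and Sox2, and up to 4 passing genes of smallest p per list or else the 2 of highest level. Further genes, and the CCAAT element, were named after their values were seen. Listed genes without a single-symbol cluster (among them Cnot1, T, Sycp3, Insl3 and Lhcgr) were not used here. Alternatives were other normalizations, filter, weights, variance prior, cluster rule, controls, a replicate block and leaving out each array. Promoters are RefSeq's, on GRCm38.p6.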

Additional observations from a re-analysis of the deposited data

How the results depend on the processing

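In KO against WT the count of 1 passing member (Foxc2) held with median centring, quantile normalization, the filter on level, array weights, another variance prior and the mean of clusters. It was 0 with own littermates, with WT of the other litters (Foxc2 0.42, adjusted p = 0.0593) and with the replicate block (Foxc2 0.42, adjusted p = 0.0664), and 0 to 2 with 1 array left out. KO arrays share replicate numbers with WT 1 to WT 3 only, so the block also sets aside the controls of the KO litters, and its loss is not separate from that with the other litters. Over all genes 1078 passed in KO testes, against 2459 among genes above the median level, 2048 with the trended robust prior, 2 with own littermates and 2 to 2323 with 1 array left out. In KI against KO 0 genes passed, and 57 with the filter, 5 with the trended prior, 247 with the replicate block and 0 to 721 with 1 array left out, none of them a member. In KI against WT and in the difference of effects 0 genes passed in every setting run. Between WT groups 0 passed, against 1 with the trended prior and 0 to 50 with 1 array left out. Replicate numbers showed little sign of pairing the arrays. Deviations of same-numbered arrays from their group means had correlations of 0.14, 0.11 and -0.03 for KI and KO. The correlations were 0.01, 0.16 and 0.07 for KO and WT 1 to WT 3, and 0.07, 0.04 and -0.02 for KI and WT 1 to WT 3. No passing difference changed sign. Differences of members that did not pass changed sign in 26 cases, 8 of them for Pax7, 6 each for Foxo1 and Taf4b, 4 for Id4, and 1 each for Eomes and Sall4. The cause of these changes was not tested. Signal over background limits Nanos2, Eomes and Pdx1.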

Other observations

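The 10 genes differed in how far replicates scattered. The residual SD within genotype was 0.34 on the log2 scale for Id4, larger than that of 95.3% of all genes, and 0.10 for both Nanos2 and Taf4b, against a median of 0.15 over all genes. For Taf4b the scatter lay mostly in KO testes (SD 0.18, n = 3), beside 0.02 in KI (n = 3) and 0.07 in WT testes (n = 6). For Zbtb16 it lay mostly in WT testes, with an SD of 0.08 in KI, 0.03 in KO and 0.17 in WT testes.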
